A study of Mus musculus with 4 samples.

Results

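Small nucleolar RNAs (snoRNAs) were examined in total RNA of mouse gastric organoids. Members were the genes that the deposited tables annotate as snoRNA and that had at least 20 counts in each of the 4 libraries. They were thus selected on their counts, which gave 131 of 1331 snoRNA genes. They were 67 box C/D snoRNAs, 60 box H/ACA snoRNAs and 4 snoRNAs whose class the gene names and descriptions do not give. No gene named or described as a small Cajal body RNA was a member, because the tables annotate such genes as guide_RNA. They are described apart below. Whether any of the 4 unclassed members, such as LOC115490496 (described as U89) and LOC115487283 (described as U2-19), belongs to that group was not tested.

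The organoids, grown as stomach epithelial structures in culture, carried knockouts of Cdh1 (E-cadherin), Trp53 (p53) and Smad4, the shared SMAD partner of TGF-beta and BMP signalling, or of Cdh1 and Trp53 alone. The 2 Smad4 Knockout libraries came from lines CPS1 and CPS4, and the 2 Control libraries, which share the Cdh1 and Trp53 knockouts, from lines CPE and CPG. All cells spent 2 days without serum or conditioned medium before harvest. Beside this step, the labels give 5% fetal bovine serum for all 4 libraries. The labels give neither the animals nor the derivation of the lines, nor how the alleles were made, so p-values measure only the spread between these 4 libraries. In bulk RNA, fewer cells of a type and less RNA per cell cannot be told apart.

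SnoRNAs are short stable RNAs that guide chemical modification of other RNAs, mostly ribosomal RNA in the nucleolus. Box C/D snoRNAs pair with their target and place the methyltransferase fibrillarin for 2′-O-methylation. Box H/ACA snoRNAs fold into hairpins that place the pseudouridine synthase dyskerin. A few, such as U3, U8, U14, U17 and U22, act in the cutting of the ribosomal RNA precursor. Most mammalian snoRNAs lie in introns of host genes and are trimmed out of the excised intron, and many hosts encode ribosomal proteins or are noncoding genes such as Gas5 and Snhg1.

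The sequences below show the members that lead the results: the 3 U17 (SNORA73) copies, which include the most abundant member and can share reads, 4 box C/D members and 1 more Snhg1 member for comparison. They are GRCm38 sequences on the strand of the gene, written as DNA. Capitals mark the ACA that lies 3 bases before the end of a box H/ACA snoRNA, TGATGA (the C box) within the first 20 bases and the last CTGA (the D box) within the final 12 bases of a box C/D snoRNA.
Snora73a, chr4:132352775-132352979, minus strand, in Rcc1: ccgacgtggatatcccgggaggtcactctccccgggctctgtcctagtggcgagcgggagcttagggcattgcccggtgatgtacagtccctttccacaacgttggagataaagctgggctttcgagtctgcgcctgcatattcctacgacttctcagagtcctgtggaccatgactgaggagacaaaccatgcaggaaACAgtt
Snora73b, chr4:132352322-132352526, minus strand, in Rcc1: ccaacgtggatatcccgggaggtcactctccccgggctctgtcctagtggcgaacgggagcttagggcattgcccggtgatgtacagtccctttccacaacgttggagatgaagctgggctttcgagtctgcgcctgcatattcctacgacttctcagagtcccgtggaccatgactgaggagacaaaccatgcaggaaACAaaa
LOC115487256 (SNORA73 family), chr9:120129351-120129553, plus strand, in Rpsa: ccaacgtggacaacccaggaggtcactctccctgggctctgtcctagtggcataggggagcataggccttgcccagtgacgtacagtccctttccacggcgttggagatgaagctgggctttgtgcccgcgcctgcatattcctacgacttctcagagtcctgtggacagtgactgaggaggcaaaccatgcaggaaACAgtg
LOC115487638 (SNORD24), chr1:161036057-161036139, plus strand, in Gas5: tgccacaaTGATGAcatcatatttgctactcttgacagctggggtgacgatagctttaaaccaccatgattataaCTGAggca
LOC115487644 (SNORD44), chr1:161036682-161036741, plus strand, in Gas5: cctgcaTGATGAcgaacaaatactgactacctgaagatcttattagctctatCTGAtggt
LOC115487677 (SNORD78), chr1:161036984-161037049, plus strand, in Gas5: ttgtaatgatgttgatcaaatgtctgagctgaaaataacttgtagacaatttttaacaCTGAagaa
LOC115489087 (SNORD31), chr19:8725594-8725660, plus strand, in Snhg1: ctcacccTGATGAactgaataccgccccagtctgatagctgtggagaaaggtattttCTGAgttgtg
LOC115489081 (SNORD29), chr19:8725092-8725156, plus strand, in Snhg1: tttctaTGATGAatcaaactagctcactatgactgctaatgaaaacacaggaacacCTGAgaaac

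Snora73a and Snora73b were identical at 96.6% of aligned bases, and LOC115487256 was identical to Snora73a at 88.3%. Their read assignment is therefore uncertain. Rcc1 is the host of Snora73a and Snora73b by its GENCODE span. The RefSeq span of Rcc1, chr4:132331919-132345750, does not reach them, so the counts of Rcc1 may not be those of their host. Among the 129 members with a GENCODE sequence, 24 were at least 80% identical to another member of their class, in 15 pairs. The pairs with the highest identity were the SNORD50 copies in Snhg5 at 98.6% and Snord14d with Snord14c in Hspa8 at 97.7%. The box sequences described the classes. Of 66 box C/D members with a sequence, 45 (68.2%) held TGATGA within the first 20 bases and 57 (86.4%) held CTGA within the final 12 bases, against 0 and 2 of 59 box H/ACA members. Of the box H/ACA members, 47 (79.7%) ended with ACA and 3 more bases, against 1 of 66 box C/D members. On the reverse complement, the same windows held TGATGA in 0 and CTGA in 4 of the 66 box C/D members.

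The libraries held 85649781 and 96402585 counts in the knockouts, against 99845702 and 92334224 in the controls. Smad4, the targeted gene, was lower in both knockouts without overlap. It stood at 54.4 and 52.9 CPM (counts per 1000000 counts of the library, after scaling between libraries) in the knockouts, against 94.5 and 103 CPM in the controls. Its log2 fold change was -0.88 (SE 0.10), with an adjusted p of 0.677 by edgeR and 4.79e-08 by DESeq2, and transcript remained in the knockouts. Both genotypes are labelled with knockouts of Cdh1 and Trp53, so a comparison of the genotypes does not check those deletions. Cdh1 had 30.6 and 44.1 CPM in the knockouts and 30.7 and 26.0 CPM in the controls, and Trp53 5.43 and 4.69 CPM in the knockouts and 4.87 and 6.98 CPM in the controls. The epithelial keratin Krt8 was high, at 3480 and 3582 CPM in the knockouts and 3538 and 3260 CPM in the controls. Among the other gastric epithelial markers, Cldn18 had 252 and 248 CPM in the knockouts and 254 and 255 CPM in the controls. Sox2 had 27.7 and 30.9 CPM in the knockouts and 31.4 and 36.2 CPM in the controls. Tff2 had 37.6 and 23.4 CPM in the knockouts and 17.9 and 12.9 CPM in the controls. Tff1 and Gata4 were also detected in all 4 libraries. Several markers particular to stomach were low or absent. Pgc (pepsinogen C) was at 0 in all 4 libraries, Muc6 (a gland mucin) was at 0 in both knockouts and at 0.163 and 0.129 CPM in the controls, and Muc5ac (a surface mucin) had 1.15 and 2.35 CPM in the knockouts and 1.58 and 0.690 CPM in the controls. Of 14 gastric epithelial markers tested, 0 were called. By edgeR 4 of the 14 had an unadjusted p under 0.05, against 6.36% of all genes tested. These were Tff1, Tff2 and Gkn1, higher in the knockouts, and Muc6, lower in the knockouts (edgeR adjusted p = 0.677 for each). Gkn1, a protein secreted by stomach mucosa, had 5.87 and 19.97 CPM in the knockouts, against 2.95 and 2.54 CPM in the controls. The part of these markers in the snoRNA values was not tested. The summed level of 8 fibroblast markers was 2.00 and 1.10 CPM in the knockouts and 2.65 and 3.70 CPM in the controls, with Lum and Pdgfrb at 0 in all 4 libraries. The immune marker Cd3e was at 0 in all 4 libraries. The part of the small remainder in the snoRNA values was not tested. Smad4 Knockout 2 had the largest share of counts on ribosomal RNA genes (0.562%, against 0.243% in Smad4 Knockout 1 and 0.242% and 0.389% in the controls) and on mitochondrial genes (1.48%, against 0.949% to 1.18% in the other libraries).

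The 131 members took a very small part of each library. Their summed count was 16379 and 21767 in the knockouts and 19438 and 20477 in the controls, or 0.0191% and 0.0226% of the counts in the knockouts and 0.0195% and 0.0222% in the controls. They held between 91.6% and 92.8% of all snoRNA counts. Of all 1331 snoRNA genes, 975 were at 0 in every library. The members' mean count over the 4 libraries had a median of 76.5, and 51 members averaged at least 1 CPM. The SE of a member's log2 fold change ranged from 0.17 to 0.78 with a median of 0.45.

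The tables' counts of these short genes were rounded estimates. In each library 1 constant turned the deposited FPKM times gene length into the deposited count of all 131 members once the product was rounded up. Before rounding, only 12 to 14 of the 131 products per library lay within 0.05 of a whole number. Reads in an intronic snoRNA can also come from the unspliced host transcript, and the RNeasy column used for extraction recovers RNA of snoRNA size poorly in its standard use. The levels are those of what the column, the library and the counting kept.

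Just inside the selection threshold lay Snord14d, with counts of 44 and 66 in the knockouts and 20 and 61 in the controls. LOC115485825 (SNORD70) had counts of 21 and 37 in the knockouts and 30 and 43 in the controls, and LOC115487881 (SNORA5) 50 and 37 in the knockouts and 40 and 21 in the controls. Just outside lay LOC115489822 (SNORA32), LOC115490074 and LOC115489590 (SNORA71), each with a lowest count of 19. A total of 28 members had a lowest count under 30, and 34 snoRNA genes outside had a lowest count from 10 to under 20. The threshold thus runs through a dense range of low counts.

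Several large imprinted box C/D families were nearly undetected. SNORD115 and SNORD116, imprinted box C/D families known for expression in brain, have 134 and 69 genes in the tables. A count above 0 in any library was found for 2 SNORD115 genes and 13 SNORD116 genes, with 1 and 2 as their highest counts. SNORD116 summed to 7 and 0 counts in the knockouts and to 10 and 0 in the controls. All 13 SNORD113 genes and all 13 SNORD114 genes, imprinted families of another locus, were at 0 in all 4 libraries.

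Box H/ACA members held the highest levels. Snora73a (gene ID 100306944, U17, which acts in the cutting of the ribosomal RNA precursor) held 19.1% of the members' counts. It had 31.1 and 40.8 CPM in the knockouts, against 40.3 and 46.6 CPM in the controls. Smad4 Knockout 1 was the lowest library and the groups overlapped. The group means were 35.9 ± 6.87 CPM in the knockouts and 43.5 ± 4.44 CPM in the controls (SD, n = 2 each), with a log2 fold change of -0.27 (SE 0.17, edgeR adjusted p = 0.861). On the per-length TPM scale, Snora73a averaged 315 TPM over the 4 libraries, ahead of LOC115489055 (SNORA12) at 97.8 TPM, Snora78 at 91.2 TPM and Snora73b at 79.0 TPM.

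**Figure D1:**
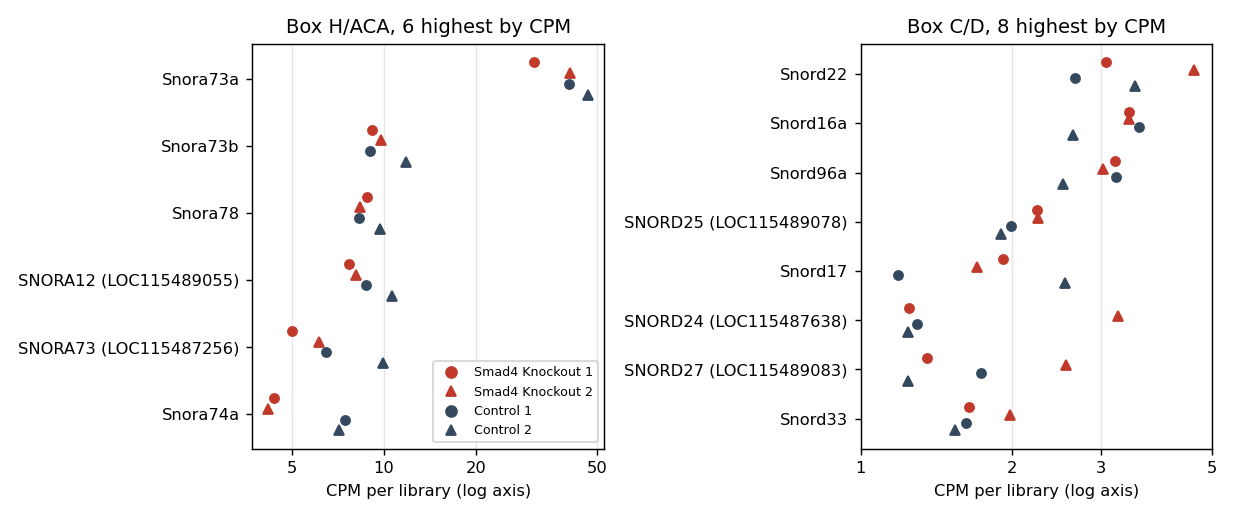
CPM on a log axis in each library for the 6 box H/ACA (left) and 8 box C/D members (right) with the highest mean CPM; each point is 1 library. Both Smad4 Knockout points of Snora74a lie left of both Control points, at 4.36 and 4.18 against 7.46 and 7.12 CPM, and for SNORD24 (LOC115487638) only Smad4 Knockout 2 stands apart, at 3.25 CPM.

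Snora74a (gene ID 436583, in the Snhg4 gene) had the clearest difference of any member. It stood at 4.36 and 4.18 CPM in the knockouts, against 7.46 and 7.12 CPM in the controls. Libraries of 1 genotype lay close together and the groups did not overlap. The means were 4.27 ± 0.130 CPM in the knockouts and 7.29 ± 0.242 CPM in the controls (SD, n = 2 each), a log2 fold change of -0.77 (SE 0.19). Its unadjusted p of 0.00622 was the only one under 0.05 among the members, and over all 18115 genes tested it did not pass (edgeR adjusted p = 0.677, DESeq2 adjusted p = 0.232). Snhg4, its host by a match of spans without strand, had 12.2 and 12.2 CPM in the knockouts and 11.6 and 11 CPM in the controls (log2 fold change 0.10, SE 0.15).

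Of the other abundant box H/ACA members, LOC115489055 (SNORA12) had 7.66 and 8.07 CPM in the knockouts, against 8.72 and 10.6 CPM in the controls. LOC115487256, the SNORA73 copy in Rpsa, had 5.00 and 6.11 CPM in the knockouts, against 6.44 and 9.90 CPM in the controls. In both, the groups did not overlap and the knockouts were lower, with log2 fold changes of -0.30 (SE 0.18) and -0.56 (SE 0.26), and neither passed the test (edgeR adjusted p = 0.865 and 0.819). Snora78, in Snhg9, had 8.79 and 8.35 CPM in the knockouts and 8.27 and 9.71 CPM in the controls. Snora73b had 9.16 and 9.81 CPM in the knockouts and 8.98 and 11.8 CPM in the controls. In these last members the groups overlapped.

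Box C/D members were present at a similar level per length: the median member averaged 13.6 TPM, against 12.4 TPM for box H/ACA. The highest per length was Snord96a, in Rack1, at 63.3 TPM. It had 3.20 and 3.03 CPM in the knockouts and 3.23 and 2.52 CPM in the controls. Snord16a, in Rpl4, followed at 58.2 TPM, with 3.41 and 3.42 CPM in the knockouts and 3.57 and 2.64 CPM in the controls. Control 2 was the lowest library for both, and the groups overlapped.

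Snord22, the U22 snoRNA of Snhg1 known from Xenopus for its part in small-subunit ribosomal RNA processing, had 3.08 and 4.59 CPM in the knockouts and 2.66 and 3.51 CPM in the controls. LOC115489078 (SNORD25), also in Snhg1, had 2.24 and 2.25 CPM in the knockouts, against 1.99 and 1.90 CPM in the controls. Snord33, in Rpl13a, had 1.64 and 1.98 CPM in the knockouts, against 1.62 and 1.54 CPM in the controls. The groups overlapped for Snord22 and did not for SNORD25 and Snord33, where the knockouts were slightly higher. Snord17, in Snx5, had 1.92 and 1.70 CPM in the knockouts and 1.18 and 2.55 CPM in the controls, so that its controls held both the lowest and the highest value. Snord118 (U8), which acts in the processing of the large-subunit ribosomal RNA and has no host in the annotation used, had 0.729 and 1.10 CPM in the knockouts and 0.745 and 0.852 CPM in the controls.

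The comparison of Smad4 Knockout with Control organoids called no snoRNA. All 131 members were tested, and 0 passed with edgeR, where 0 of the 18115 genes tested did (0%). Even Smad4, the targeted gene, did not pass (edgeR adjusted p = 0.677), so the absence of calls does not show that the members were unchanged. The members' adjusted p-values ran from 0.677 to 0.9997. At an unadjusted p under 0.05 there was 1 member, against 6.36% of all genes. DESeq2, which called 0.724% of its genes, also called 0 members, again with 1 at an unadjusted p under 0.05. On log2(TPM + 1) values, limma called none after adjustment but gave 26 members an unadjusted p under 0.05, 21 of them higher in the knockouts, against 7.09% of its genes. TPM values hold no record of the counts behind them.

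The direction of the differences was not even between the classes. Of the 131 members 81 had a log2 fold change above 0 (61.8%, against 49.5% of all genes tested), and the median was 0.14, against -0.00 over all genes. In box C/D, 46 of 67 members were above 0 and the median log2 fold change was 0.28, with quartiles at -0.10 and 0.56. In box H/ACA, 33 of 60 were above 0 and the median was 0.03, with quartiles at -0.14 and 0.28. The 1671 other genes tested with levels in the members' interquartile range had a median of 0.01. When the libraries were scaled to the members themselves, the medians became 0.17 for box C/D and -0.07 for box H/ACA, against -0.09 for all genes.

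The same split appeared in the libraries themselves. Both knockout libraries lay above both controls for 38 of 131 members (29.0%), against 18.2% of all genes tested. Of these 24 were box C/D, 13 box H/ACA and 1 unclassed. Both knockouts lay below both controls for 17 members (13.0%), against 18.6% of all genes, and these were 7 box C/D, 9 box H/ACA and 1 unclassed.

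Much of the box C/D difference was in 1 library. Smad4 Knockout 2 was the highest library for 61 members (46.6%), against 29.1% of all genes: for 37 of 67 box C/D members and for 22 of 60 box H/ACA members. The median box C/D member stood 0.29 above its own 4-library mean (log2) in Smad4 Knockout 2 and -0.05 in Smad4 Knockout 1, against -0.20 in Control 1 and -0.06 in Control 2. For box H/ACA the medians were 0.03 and 0.01 in Smad4 Knockout 2 and 1, and -0.04 and 0.06 in Control 1 and 2. Without Smad4 Knockout 2 the median box C/D log2 fold change was 0.07, and without Smad4 Knockout 1 it was 0.47. This is the library with the largest ribosomal and mitochondrial RNA shares given above, and their part in the result was not tested.

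**Figure D2:**
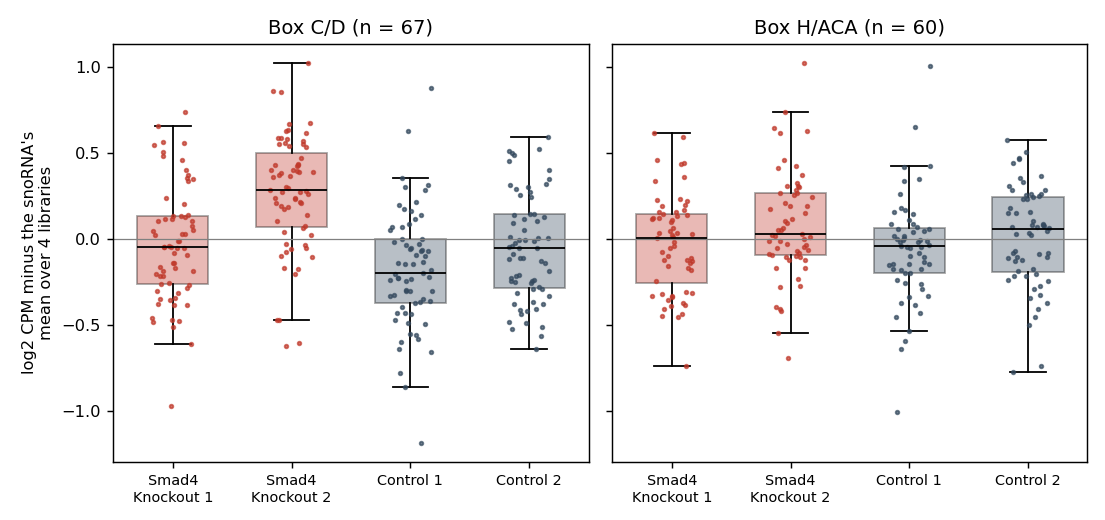
Deviation of each member's log2 CPM from its mean over the 4 libraries, for box C/D (left, 67 members) and box H/ACA (right, 60 members); points are snoRNAs, boxes span the quartiles with the median as a line. The box C/D median is 0.29 in Smad4 Knockout 2 and at or below -0.05 in the other libraries, while all 4 box H/ACA medians lie between -0.04 and 0.06.

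Summed by class, box C/D members took 0.00604% and 0.00757% of the counts in the knockouts, against 0.00538% and 0.00589% in the controls. The exact 95% intervals, which cover counting error only, were 0.00588% to 0.00621% and 0.00740% to 0.00775% in the knockouts, and 0.00523% to 0.00552% and 0.00574% to 0.00605% in the controls. The means were 0.00681% ± 0.00108 in the knockouts and 0.00563% ± 0.000364 in the controls (SD, n = 2 each), a ratio of 1.21. The interval of Smad4 Knockout 1 overlaps that of Control 2. Box H/ACA members took 0.0127% and 0.0145% of the counts in the knockouts and 0.0137% and 0.0158% in the controls. Their means of 0.0136% ± 0.00126 in the knockouts and 0.0147% ± 0.00154 in the controls (SD, n = 2 each) differ by less than the spread within each genotype.

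Class and length go together, since the median box C/D member was 74 bases long and the median box H/ACA member 132. The lengths at which members were divided were chosen after the values were seen. Of 62 members under 100 bases, 47 had a log2 fold change above 0, the median was 0.36, and both knockouts lay above both controls for 27 and below for 6. Of 49 members from 100 to under 140 bases, 30 were above 0 with a median of 0.12. Of 20 members of 140 bases or more, 4 were above 0 and the median was -0.15. Both knockouts lay above both controls for 0 of these 20 and below for 5. Over all genes tested, both knockouts lay above both controls for 18.2% and below for 18.6%, so the 5 of 20 below were near the share of all genes.

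Within the classes, the 5 box C/D members of 140 bases or more had a median of -0.17, against 0.36 for the 58 under 100 bases. Their sign rested on single libraries: the median was 0.01 without Smad4 Knockout 2, -0.13 without Smad4 Knockout 1, -0.44 without Control 1 and 0.23 without Control 2, and 0 of the 5 had groups without overlap. The 14 box H/ACA members of 140 bases or more had a median of -0.16, against 0.11 for the 44 from 100 to under 140 bases. Their median ranged from -0.28 without Smad4 Knockout 2 to -0.10 without Smad4 Knockout 1. Across the members, length and log2 fold change had a Spearman correlation of -0.39 (n = 131) and of -0.42 within box H/ACA (n = 60), but of -0.11 within box C/D (n = 67). These points share the same 4 libraries. Over all members, the median was 0.15 under 100 bases and -0.28 at 140 bases or more without Smad4 Knockout 2, and 0.50 and -0.10 without Smad4 Knockout 1. Without Control 1 these medians were 0.36 and -0.34, and without Control 2 they were 0.34 and -0.04.

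**Figure D3:**
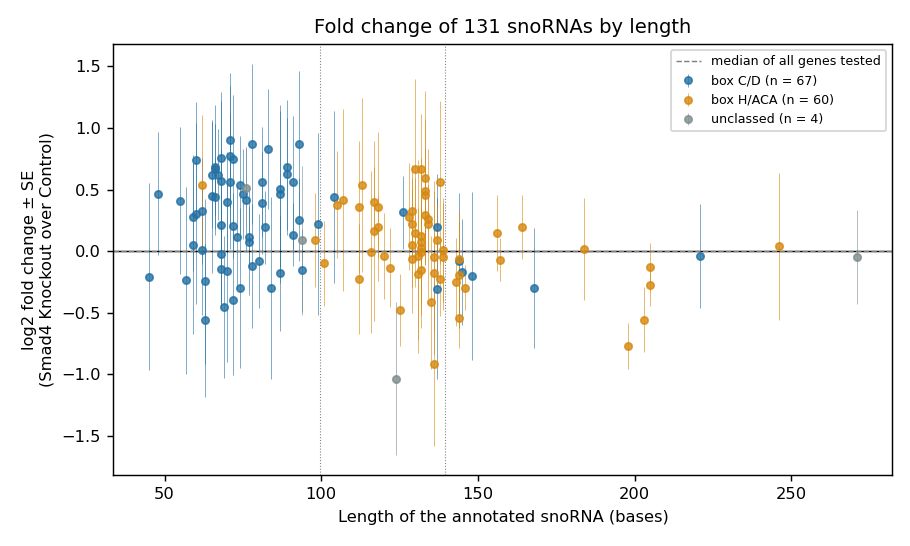
log2 fold change (Smad4 Knockout over Control) with its SE for each of the 131 members against its annotated length in bases, coloured by class; dotted lines mark 100 and 140 bases and the dashed line the median of all genes tested. Most points under 100 bases lie above 0 (47 of 62) and few at 140 bases or more do (4 of 20), with SEs that often reach 0.

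Among members whose knockouts lay above both controls, the 6 with the smallest p included LOC115487677 (SNORD78), which had 1.40 and 2.31 CPM in the knockouts, against 1.07 and 1.27 CPM in the controls. LOC115489087 (SNORD31) had 1.21 and 1.16 CPM in the knockouts, against 0.806 and 0.734 CPM in the controls. LOC115489586 (SNORD36, in Rpl7a) had 0.787 and 0.712 CPM in the knockouts, against 0.296 and 0.507 CPM in the controls. SNORD31 and SNORD36 were alike in the 2 knockouts, whereas SNORD78 was led by Smad4 Knockout 2. Their log2 fold changes were 0.66 (SE 0.37), 0.62 (SE 0.37) and 0.90 (SE 0.55), with edgeR adjusted p-values of 0.846, 0.858 and 0.865. The other 3 were LOC115487283 (described as U2-19) at 0.52 (SE 0.32), LOC115487644 (SNORD44) at 0.74 (SE 0.47) and LOC115489002 (SNORA13) at 0.67 (SE 0.45).

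Among members whose knockouts lay below both controls, the smallest p after Snora74a belonged to LOC115487892 (SNORA48, in Eif4a1). It had 2.28 and 2.62 CPM in the knockouts, against 3.34 and 3.81 CPM in the controls, a log2 fold change of -0.54 (SE 0.24, edgeR adjusted p = 0.813). It is 93.8% identical to the SNORA48 copy LOC115487050 in Gsr, whose groups overlapped. Gm12238 (class not given, in G3bp1) had 0.509 and 0.237 CPM in the knockouts, against 0.602 and 0.928 CPM in the controls, and its log2 fold change of -1.04 (SE 0.62) was the only one beyond 1 in either direction. LOC115488690 (SNORA63, in Eif4a2) had 1.34 and 1.35 CPM in the knockouts, against 1.76 and 2.00 CPM in the controls, a log2 fold change of -0.48 (SE 0.30).

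Differences between libraries of 1 genotype were as large as those between genotypes. Snora41, in Eef1b2, had 0.301 and 1.02 CPM in the knockouts and 0.439 and 0.475 CPM in the controls. LOC115488834 (SNORD48) had 0.278 and 0.805 CPM in the knockouts and 0.510 and 0.777 CPM in the controls. Together with LOC115487638 (SNORD24) these were the members with the largest gap between the knockouts, of 1.76, 1.54 and 1.38 on the log2 scale. In all 3 Smad4 Knockout 2 was the higher. The largest gaps between the controls were those of Snord14d at 1.69, LOC115488064 (SNORA42/SNORA80) at -1.43 and LOC115486130 (SNORA70) at 1.31, as Control 2 minus Control 1, and all 3 had under 100 counts in every library.

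Host genes were compared with the snoRNAs they hold. By annotation 129 members lay in 75 host genes, 60 of them protein-coding with 94 members and 15 long noncoding with 35. Of the members 46 lay in an intron and overlapped no exon of another gene, 58 overlapped only transcripts with a retained intron, and 20 overlapped an exon of another kind of transcript, so that their reads and those of the host cannot be fully told apart. No host was called, and 0 had an unadjusted p under 0.05. Host log2 fold changes ran from -0.31 to 0.33 with a median of 0.01, a much narrower range than the members' -1.04 to 0.90. The Spearman correlation of member and host log2 fold change was 0.09 over 129 members, 0.17 over 75 hosts with 1 median each, and 0.24 over the members without Smad4 Knockout 1. These values share their libraries, and the members' SE is larger than most host changes.

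**Figure D4:**
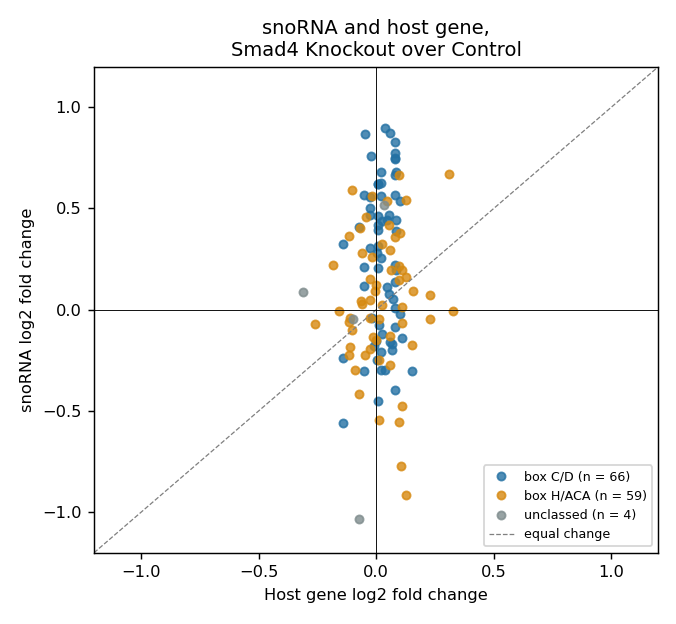
log2 fold change of each snoRNA against that of its host gene (Smad4 Knockout over Control), 129 members in 75 hosts; the dashed line marks equal change. Hosts lie between -0.31 and 0.33 while snoRNAs spread from -1.04 to 0.90.

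Gas5, a noncoding gene known mainly for its intronic box C/D snoRNAs, held 5 members. Their summed level was 5.03 and 9.95 CPM in the knockouts, against 4.99 and 5.69 CPM in the controls. All 5 were highest in Smad4 Knockout 2, and the sum in Smad4 Knockout 1 lay between the controls. Gas5 itself had 48.0 and 62.6 CPM in the knockouts and 55.4 and 49.4 CPM in the controls, a log2 fold change of 0.08 (SE 0.16).

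Within Gas5 the members differed. LOC115487638 (SNORD24, a guide for methylation of large-subunit ribosomal RNA) had 1.25 and 3.25 CPM in the knockouts, against 1.30 and 1.24 CPM in the controls, so that Smad4 Knockout 1 lay between the controls. LOC115487644 (SNORD44) had 0.902 and 1.91 CPM in the knockouts, against 0.796 and 0.885 CPM in the controls. LOC115487643 (SNORD74) had 1.03 and 1.63 CPM in the knockouts and 1.23 and 1.60 CPM in the controls. LOC115487678 (SNORD75), the lowest, had 0.451 and 0.846 CPM in the knockouts and 0.602 and 0.690 CPM in the controls. Over the 5 members the median log2 fold change was 0.66 and, without Smad4 Knockout 2, -0.01.

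Snhg1, the U22 host gene, held 8 members. Their summed level was 11.6 and 15.6 CPM in the knockouts, against 10.7 and 10.7 CPM in the controls, and both knockouts lay above the controls. Snhg1 had 44.7 and 51.6 CPM in the knockouts and 51.0 and 44.6 CPM in the controls, a log2 fold change of 0.01 (SE 0.13). Of the 8, 7 had a log2 fold change above 0, with a median of 0.41 that was 0.11 without Smad4 Knockout 2. LOC115489081 (SNORD29) had 0.879 and 1.29 CPM in the knockouts, against 0.613 and 0.798 CPM in the controls. The exception was LOC115489086 (SNORD30), the lowest of the 8, with 0.359 and 0.444 CPM in the knockouts, against 0.582 and 0.518 CPM in the controls.

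**Figure D5:**
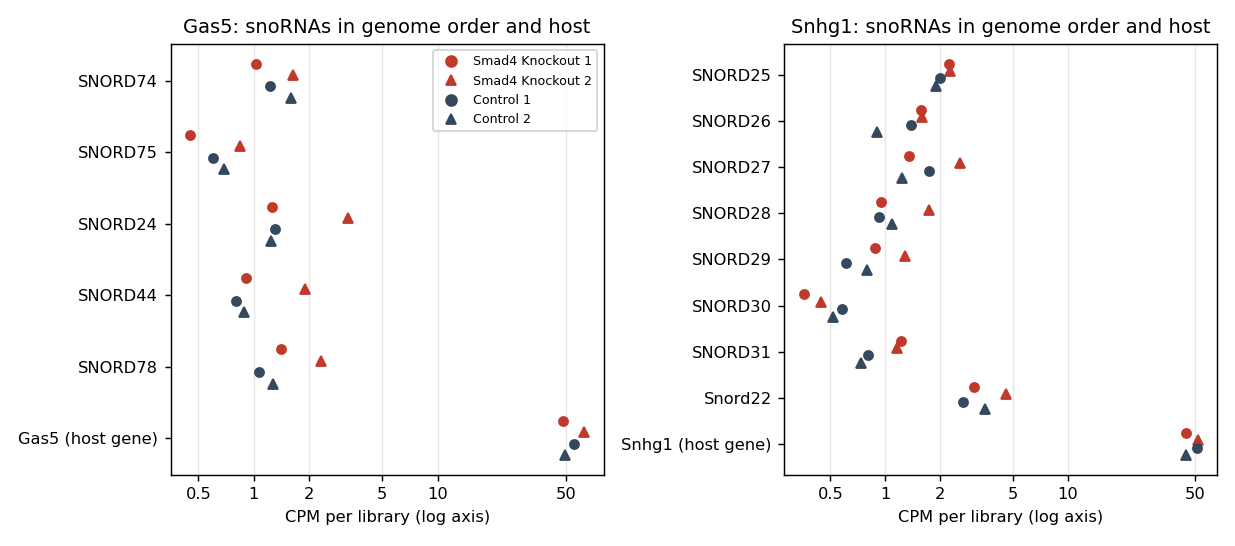
CPM on a log axis in each library for the members in Gas5 (left) and Snhg1 (right), in genome order, with the host gene in the last row; each point is 1 library. All 5 Gas5 members are highest in Smad4 Knockout 2, and SNORD31 in Snhg1 is higher in both knockouts, at 1.21 and 1.16 against 0.806 and 0.734 CPM.

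SnoRNAs of 1 host stood at unequal levels. Per length, the highest and lowest member differed 12.5-fold in Rpsa (LOC115487256 at 55.1 TPM and Snora62 at 4.40 TPM), 7.76-fold in Rpl4 (Snord16a and LOC115487263) and 6.01-fold in Rack1 (Snord96a and Snord95). The ratio was 4.27 in Snhg1, 3.87 in Rpl13a (Snord33 and Snord35a), 3.17 in Snhg12 (Snora61 and Snora44) and 2.21 in Gas5. In Hspa8, which holds the U14 copies Snord14e, Snord14d and Snord14c, it was 1.27. The 44 members in ribosomal protein genes, with Rpsa and Rack1 counted among them, had a median log2 fold change of 0.20, which was 0.08 without Smad4 Knockout 2, and their 25 hosts -0.00. All 3 members in Zfas1, including LOC115486178 (SNORD12/SNORD106) and Snord12, had a log2 fold change above 0, as did all 4 in Rpl13a and all 4 in Rpl4. Without Smad4 Knockout 2 the median was 0.31 in Zfas1, against 0.63 with all 4 libraries, 0.17 in Rpl13a, against 0.42, and 0.49 in Rpl4, against 0.39. All 3 in Eif4a1, including LOC115487914 (SNORD10), had one below 0. None of these passed the test.

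All 3 members in Hspa8 (median 0.50, and 0.26 without Smad4 Knockout 2) and all 3 in Rack1 (median 0.21) had a log2 fold change above 0, and none passed the test. Other hosts of 3 or more members were mixed. In Eif4a2, which holds 5 members from LOC115488689 (SNORA63) down to LOC115488691 (SNORA4), 2 were above 0 and the median was -0.06. Of 3 members in Rps12, Snora33 had 0.983 and 1.90 CPM in the knockouts and 0.970 and 1.25 CPM in the controls, and Snord100 0.694 and 1.07 CPM in the knockouts and 0.858 and 0.939 CPM in the controls. In Rpl5, with Snord21 and LOC115490267 (SNORA66), 1 of 3 was above 0, and in 2410006H16Rik, with Snord49a and Snord65, 1 of 3.

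The RNA levels of the genes for snoRNA particle proteins differed little between the genotypes, and protein was not measured. The box C/D core genes are Fbl (fibrillarin), Nop56, Nop58 and Snu13, and their log2 fold changes ran from -0.01 to 0.06. Fbl had 57.6 and 66.6 CPM in the knockouts and 67.2 and 57.1 CPM in the controls. The box H/ACA core genes Dkc1 (dyskerin), Nhp2, Nop10 and Gar1 ran from -0.26 to 0.02. Gar1 had 11.4 and 12.4 CPM in the knockouts, against 15.2 and 13.3 CPM in the controls, and did not pass (log2 fold change -0.26, SE 0.16, edgeR adjusted p = 0.858). Of 12 genes for assembly and transport, 8 for 3′ processing and turnover, 6 for the Cajal body and 10 for RNA polymerase I and the nucleolus, 0 passed in either direction and 0 had an unadjusted p under 0.05.

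Small Cajal body RNAs guide modification of spliceosomal RNAs and are built like snoRNAs. Of 41 genes annotated as guide_RNA, 9 had at least 20 counts in each library, with lengths from 42 to 343 bases. Scarna13, in Snhg10, had 58.0 and 70.6 CPM in the knockouts and 60.1 and 63.4 CPM in the controls. LOC115489854 (small Cajal body RNA 7 family) had 32.1 and 54.1 CPM in the knockouts and 31.1 and 37.8 CPM in the controls. The 9 summed to 140.2 and 185 CPM in the knockouts and 146 and 153 CPM in the controls, and Smad4 Knockout 2 was again the highest library.

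Among the other 7, LOC115487906 (family 21), in Chd3, had 21.6 and 26.4 CPM in the knockouts, against 20.4 and 19.7 CPM in the controls, without overlap. Scarna10 had 15.6 and 17.3 CPM in the knockouts and 18.4 and 16.6 CPM in the controls. Scarna6, in Atg16l1, had 2.94 and 2.74 CPM in the knockouts, against 4.91 and 4.01 CPM in the controls, without overlap. Its log2 fold change was -0.65 (SE 0.23, edgeR adjusted p = 0.735). Of the 9, 0 passed, 1 had an unadjusted p under 0.05 and the median log2 fold change was 0.06.

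Some related RNAs carry other annotations. U3, a box C/D snoRNA that acts in the cutting of the ribosomal RNA precursor, is annotated as snRNA in the tables. Its copy Rnu3a had 7.57 and 10.01 CPM in the knockouts and 7.77 and 11.7 CPM in the controls, and Rnu3b2 had 2.43 and 4.43 CPM in the knockouts and 2.74 and 6.18 CPM in the controls. In both, the second library of each genotype was the higher, and the groups overlapped. Rnu3b1 had 6.26 and 6.27 CPM in the knockouts and 4.05 and 6.87 CPM in the controls. Log2 fold changes were 0.20 (SE 0.29) for Rnu3b1, -0.15 (SE 0.26) for Rnu3a and -0.38 (SE 0.47) for Rnu3b2. They were -0.36 (SE 0.35) for Rnu3b3 and -0.35 (SE 0.43) for Rnu3b4.

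Of 9 other short structured RNAs, 0 passed with edgeR and Rmrp had an unadjusted p under 0.05. Rmrp, the RNA of RNase MRP, which cuts the ribosomal RNA precursor, had 3423 and 3472 CPM in the knockouts, against 4683 and 5449 CPM in the controls. The groups did not overlap, and the log2 fold change was -0.56 (SE 0.11, edgeR adjusted p = 0.677). DESeq2 gave Rmrp an adjusted p of 0.00397. Rpph1, the related RNA of RNase P, had 6650 and 8435 CPM in the knockouts and 7239 and 6154 CPM in the controls. Terc, the telomerase RNA, which ends in a box H/ACA domain, had 13.1 and 15.2 CPM in the knockouts and 15.8 and 20.6 CPM in the controls (log2 fold change -0.37, SE 0.18). Rn7sk, which controls transcription elongation, had 13018 and 14068 CPM in the knockouts and 13511 and 14017 CPM in the controls.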

How the data were processed

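Total RNA of 4 libraries was sequenced after a ribosomal RNA depleting, strand-keeping kit, per the labels' protocols. The build is mm10, and the tools listed in the submitters' processing notes are HISAT2 2.1.0 and StringTie 2.1.3b, with Trimmomatic and bcl2fastq 2.20.0; how reads were counted, and with which strand setting, is not given in the sources used. Per the file headers, each deposited table has 3 values per gene: read count, FPKM and TPM. The deposited counts were treated as estimated counts. The deposited FPKM served to check the counts, the deposited TPM for levels per length and for limma, and 1 extra FPKM column was left aside. The columns of Control 2 carry its title with an added 2.

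The test was the quasi-likelihood F-test of edgeR 4.0.16 ( TMM, filterByExpr with a minimum count of 10, R 4.3.3), genotype as the only term, Benjamini-Hochberg over 18115 genes and an adjusted p of 0.05. With 2 libraries per genotype the smallest two-sided exact permutation p is 0.333, and no such test was run. CPM use TMM-scaled sizes; a count of 0 allows up to 3 counts. The edgeR step was also run on simulated data with known changes, and the outcome is not reported here. DESeq2 1.42.0 and limma 3.58.1 were alternatives.

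Coordinates are from RefSeq (GRCm38.p6); hosts, strand and sequences are from GENCODE vM21 (GRCm38), for snoRNAs overlapping by at least 50% both ways. A further 6 hosts came from RefSeq spans, without strand. Members and gene lists were chosen with earlier results of these data known. Named snoRNAs were the highest 8 box C/D and 6 box H/ACA by mean CPM, the 6 of smallest p per direction among groups without overlap, those at the threshold, the highest and lowest per host of 3 or more members, and those with the largest gaps within a genotype; other named members, such as Snord118 and the further Gas5 and Snhg1 members, were chosen after their values were seen.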

Additional observations from a re-analysis of the deposited data

How the results depend on the processing

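No snoRNA was called by edgeR with TMM or RLE factors, without a filter on low counts, by DESeq2, by limma on log2(TPM + 1), without any 1 library, or with the member rule changed to a mean of at least 20 counts, at least 50 counts in each library, or no overlap with another gene's exon. Over the whole table DESeq2 called 133 genes, against 0 with edgeR, and 1 gene (Rmrp) of the related gene lists, against 0. Leaving out 1 library gave between 0 genes (without either Control 2 or Smad4 Knockout 2) and 92 genes (without Smad4 Knockout 1). The cause was not tested.

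When 1 library was left out, the box C/D median log2 fold change ranged from 0.067 (without Smad4 Knockout 2) to 0.47 (without Smad4 Knockout 1), against 0.28 with all 4. The box H/ACA median ranged from 0.0034 (without Smad4 Knockout 2) to 0.10 (without Control 2), against 0.03, and was -0.065 when the libraries were scaled to the members. Members without overlap between the genotypes numbered 55, with 29.0% of members above and 13.0% below, against 18.2% and 18.6% of all genes tested. Of the 72 with at least 50 counts in each library they numbered 27 (18 above and 9 below). With 3 libraries, where separation is easier by construction, they numbered 87 to 99, of which 49 to 72 lay above and 27 to 39 below. Over all genes these shares were 32.0% to 36.4% above and 29.0% to 35.5% below. Without Smad4 Knockout 2, the 49 above were 37.4% of members, against 32.0% of all genes, and the 39 below 29.8%, against 29.0%. Without Smad4 Knockout 1 the 72 above were 55.0%, against 35.4%, and the 27 below 20.6%, against 33.4%. The ratios of class shares moved by less than the spread between libraries. The Spearman correlation of members with their hosts, 0.09 with all 4 libraries, ranged from 0.062 (Smad4 Knockout 2 left out) to 0.24 (Smad4 Knockout 1 left out). The direction of the 13 members whose fold change was followed through the alternatives held in all 104 refits. All but Snora73a were chosen because their groups did not overlap, so leaving out 1 library could hardly reverse their sign. The other refits use the same 4 libraries, so the shared direction is no separate support. The lowest adjusted p was 0.232, for Snora74a by DESeq2. The size of the fold changes did not hold. Without Smad4 Knockout 2 the log2 fold change was 0.12 for SNORD44 (0.74 with all 4 libraries), 0.27 for SNORD78 (0.66), 0.26 for U2-19 (0.52), 0.36 for SNORA13 (0.67), -0.57 for Gm12238 (-1.04) and -0.47 for Snora73a (-0.27). Without Smad4 Knockout 1 it was 1.18 for SNORD44, -1.68 for Gm12238 and -0.09 for Snora73a. Without Control 2 it was -0.22 for LOC115487256 (-0.56), -0.15 for SNORA12 (-0.30), -0.17 for Snora73a and -0.69 for Gm12238. Without Control 1 it was 0.56 for SNORD36 (0.90). Most members had few counts (the median of their mean counts was 76.5), and whether depth set the number of calls was not tested. No paired analysis was possible because the labels give no replicate numbers that the genotypes share.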
